A study of Rattus norvegicus with 6 samples.

Results

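The EGR, NR4A and IER immediate early genes were followed in rat myocardium by their gene symbols. The set held 10 genes, which were Egr1, Egr2, Egr3, Nr4a1, Nr4a2, Nr4a3, Ier2, Ier3, Ier5 and Arc, and all 10 were found among the 28293 genes of the expression table. Myocardial tissue came from wild-type (WT) male rats, 3 in the sham group and 3 in the myocardial ischemia/reperfusion (MI/RI) group. For MI/RI, blood flow in the left anterior descending coronary artery was stopped for 30 min, followed by 6 h of reperfusion. The titles of the sham samples carry the same times, and the age of the rats and the part of the heart that was sequenced are not given in the sources used here.

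Immediate early genes are switched on by signaling to factors that are already in the cell, so that their mRNA can rise before any new protein is made, and most of these mRNAs are short-lived. EGR proteins are zinc finger transcription factors that bind GC-rich promoters, and NR4A proteins are orphan nuclear receptors whose activity follows their abundance. The IER genes share a name for their rapid induction and not a protein family, while Arc is best known in neurons, where its protein controls the uptake of glutamate receptors at synapses. In the heart, Egr1 is known as an early responder to ischemia and to mechanical load.

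Serum response factor (SRF) binds the CArG box and CREB binds the cAMP response element (CRE), which are the best-studied control elements of this class of genes. Promoters were listed in RefSeq (GRCr8) for 6 of the 10 genes, Egr1, Egr2, Nr4a1, Nr4a2, Ier2 and Ier5, and were not used for Egr3, Nr4a3, Ier3 and Arc. The 150 bases before the annotated RNA start were searched on both strands for the CArG box, the CRE (TGACGTCA), its half-site (TGACG, which each CRE also contains), the EGR sites GCGTGGGCG and GCGGGGGCG, and the NR4A monomer site (AAAGGTCA). The promoters with a match other than the half-site are shown 5′ to 3′ on the strand of the gene, because they belong to 4 of the genes whose MI/RI values all lay above the sham values, with every match in capitals. They lie at chr18:26736928-26737077 (plus strand) for Egr1, chr20:21054442-21054591 (minus strand) for Egr2, chr7:134259988-134260137 (plus strand) for Nr4a1 and chr19:40399223-40399372 (plus strand) for Ier2.
Egr1: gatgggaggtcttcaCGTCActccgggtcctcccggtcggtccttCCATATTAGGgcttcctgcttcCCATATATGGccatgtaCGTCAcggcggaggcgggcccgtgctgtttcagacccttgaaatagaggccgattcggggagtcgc
Egr2: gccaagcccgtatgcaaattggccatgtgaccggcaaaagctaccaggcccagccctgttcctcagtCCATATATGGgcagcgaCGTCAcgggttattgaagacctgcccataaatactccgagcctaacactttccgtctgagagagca
Nr4a1: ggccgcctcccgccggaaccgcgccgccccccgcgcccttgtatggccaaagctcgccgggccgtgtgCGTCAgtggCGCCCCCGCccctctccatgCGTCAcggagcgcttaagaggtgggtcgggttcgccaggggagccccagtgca
Ier2: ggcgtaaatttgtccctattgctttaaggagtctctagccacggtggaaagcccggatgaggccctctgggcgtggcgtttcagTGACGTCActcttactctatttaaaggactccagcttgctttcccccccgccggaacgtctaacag

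Egr1 held 2 CArG boxes, starting at positions -105 and -83 from the RNA start, and Egr2 held 1, also starting at -83. The CArG box was present in the same window of 0.81% of 21842 promoters of protein-coding genes. Ier2 held a full CRE at -66, as did 1.59% of all promoters. Half-sites were found in 5 of the 6 promoters, every one but that of Ier5, against 15.1% of all promoters. The second EGR site was found on the opposite strand of the Nr4a1 promoter at -73, and in 2.40% of all promoters. The first EGR site (0.485% of all promoters) and the NR4A monomer site (0.618%) were in none of the 6 windows. These are matches of letters only, and no binding was measured in these samples.

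**Figure D1:**
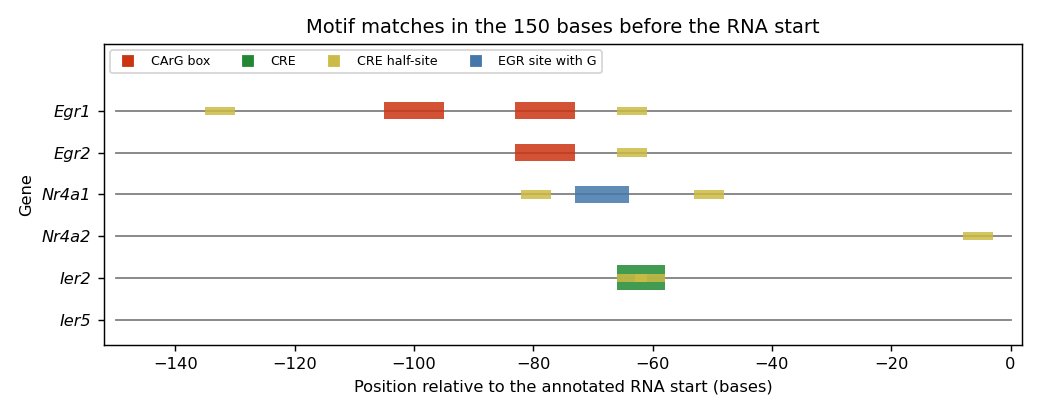
Motif matches in the 150 bases before the annotated RNA start of 6 of the genes. The horizontal axis is the position in bases relative to the start, each grey line is 1 promoter, and coloured boxes mark the CArG box, the CRE, the CRE half-site (lower boxes) and the second EGR site. CArG boxes lie at -83 in both Egr1 and Egr2, with a second one at -105 in Egr1, and the line of Ier5 carries no box.

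Each sample is taken as 1 rat, which the labels do not spell out, so p-values below measure the spread between these samples, which may be technical. Expression was deposited as FPKM, fragments per kilobase of gene scaled to library size, which allows levels to be compared between genes. Summed FPKM was lower in the MI/RI libraries (731063 to 825490) than in the sham libraries (894902 to 928941). Relative to sham replicate 1, the depth was 1 to 1.18 in the sham libraries and 0.873 to 0.935 in the MI/RI libraries, as read from the steps of low values. With it, 98.4% of the 14235 rows above 0 in all 6 libraries came out as whole numbers of fragments, to within 0.01 fragment or, for large numbers, a relative 5e-06. The fragment numbers given below are the smallest whole numbers in these proportions. mRNAs encoded by mitochondrial DNA took 80.1% to 86.2% of the summed FPKM in the sham group and 61.8% to 71.5% in the MI/RI group, with the lowest share in MI/RI replicate 1.

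Among the 8 genes tested, Egr1, Nr4a3 and Nr4a1 rose most, Ier3, Ier2 and Nr4a2 rose less, and Ier5 and Arc did not pass the test. Egr2 and Egr3, which were below the filter, are not part of this order. Of the 10 genes, 8 had all MI/RI rats above all sham rats, 6 of them among the 8 genes tested, as did 37.2% of all genes tested. Genes were compared as log2(FPKM + 0.1) in limma with Benjamini-Hochberg adjustment. Of the 8 genes with a mean of at least 0.5 FPKM, 6 were higher (adjusted p under 0.05), against 25.5% of all genes tested. Without MI/RI replicate 1, 5 of the 8 were higher, against 2063 of all 10942 genes tested. No member was lower in limma, also at an unadjusted p under 0.05 (0 genes), against 7.36% of all genes tested. The median log2 fold change of the 8 was 1.97 (0.46 to 4.44), against 0.29 for all genes tested. Nr4a2 and Nr4a3 had a sham mean under 0.5 FPKM and passed the filter through their MI/RI values, so the count of 6 is a description. In tissue RNA of this kind, more cells of a type and more RNA per cell cannot be told apart.

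**Figure D2:**
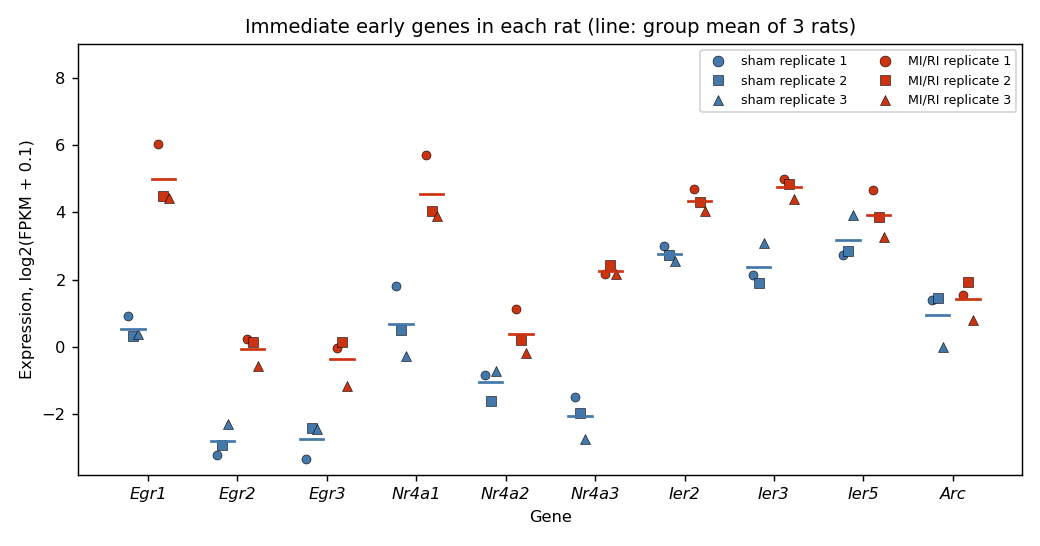
Expression of the 10 genes in each rat. The vertical axis is log2(FPKM + 0.1), each point is 1 rat (blue for sham, red for MI/RI, a shape for each replicate number), and the line is the mean of 3 rats. The groups are apart for every gene but Ier5 and Arc, and MI/RI replicate 1 stands above the other MI/RI rats for Egr1 and Nr4a1.

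Egr1 (ENSRNOG00000019422), which drives many injury genes of vessel wall and heart, was 1.78, 1.15 and 1.21 FPKM across sham rats 1 to 3 and 64.7, 22.5 and 21.4 FPKM across MI/RI rats 1 to 3. These values stood for 234, 178 and 180 fragments in the sham libraries and 7420, 2762 and 2475 in the MI/RI libraries. The groups did not overlap, and the lowest MI/RI value was 12.0 times the highest sham value. The mean rose from 1.38 ± 0.350 to 36.2 ± 24.7 FPKM (SD, n = 3 each), a 26.3-fold difference that became 15.9-fold without MI/RI replicate 1. The gene had a log2 fold change of 4.44 ± 0.40 (SE, with limma, adjusted p = 0.00047), which ranked 15 among the 10942 genes tested. All 18 alternatives in which it was tested kept it past the threshold, with a log2 fold change of 3.74 to 4.72.

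Egr2 (ENSRNOG00000000640), the EGR factor known for myelin formation in Schwann cells, and Egr3 (ENSRNOG00000017828), known for its role in muscle spindles, stayed at far lower levels. Egr2 was 0.00801, 0.0339 and 0.106 FPKM across sham rats 1 to 3 (1, 5 and 15 fragments) and 1.08, 1.01 and 0.573 FPKM across MI/RI rats 1 to 3 (118, 118 and 63 fragments). Every MI/RI rat was above every sham rat. The ratio of the group means was 18.1, and it became 42.4 without sham replicate 3, so its size rests on a few fragments. Egr3 was 0, 0.0864 and 0.0829 FPKM across sham rats 1 to 3 (0, 13 and 12 fragments) and 0.872, 0.999 and 0.347 FPKM across MI/RI rats 1 to 3 (97, 119 and 39 fragments). A count of 0 allows up to 3 fragments, or 0.0235 FPKM in sham replicate 1, which covers counting error only. The ratio of the Egr3 means was 13.1, and 8.73 without sham replicate 1.

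Both genes had a mean under 0.5 FPKM and were not part of the reported test. In a fit with no filter on low values, the log2 fold change was 2.74 ± 0.38 (SE, with limma, adjusted p = 0.016) for Egr2 and 2.38 ± 0.45 (SE, with limma, adjusted p = 0.023) for Egr3. In that fit 11.4% of 19226 genes were higher.

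Nr4a1 (ENSRNOG00000007607, also called Nur77) was 3.41, 1.32 and 0.728 FPKM across sham rats 1 to 3 and 51.5, 16.4 and 14.7 FPKM across MI/RI rats 1 to 3. It varied over 4.69-fold within the sham group and over 3.51-fold within the MI/RI group, and the groups still did not overlap. The log2 fold change was 3.86 ± 0.57 (SE, with limma, adjusted p = 0.0031). Its mean rose 15.1-fold, from 1.82 ± 1.41 to 27.5 ± 20.8 FPKM (SD, n = 3 each). The fold was 8.53 without MI/RI replicate 1 and 26.9 without sham replicate 1, and every fit kept the gene past the threshold.

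Nr4a3 (ENSRNOG00000005964, also called Nor1) came from a lower level and was more even between rats. It was 0.260, 0.154 and 0.0496 FPKM across sham rats 1 to 3 (60, 42 and 13 fragments) and 4.43, 5.25 and 4.38 FPKM across MI/RI rats 1 to 3 (892, 1134 and 892 fragments). The 3 MI/RI rats were close to each other, and the lowest was 16.9 times the highest sham rat. The log2 fold change was 4.32 ± 0.35 (SE, with limma, adjusted p = 0.00022), and the means of 0.155 ± 0.105 and 4.69 ± 0.490 FPKM (SD, n = 3 each) differed 30.3-fold, or 46.0-fold without sham replicate 1. Its log2 fold change depended on the pseudocount and was 2.30 with a pseudocount of 1 and 5.08 with 0.01, past the threshold in both.

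Nr4a2 (ENSRNOG00000005600, also called Nurr1), known for the making of dopamine neurons, had the smallest difference of the NR4A receptors. It was 0.461, 0.227 and 0.509 FPKM across sham rats 1 to 3 and 2.10, 1.06 and 0.788 FPKM across MI/RI rats 1 to 3. All MI/RI rats were above the sham rats, the lowest by 1.55-fold. The log2 fold change was 1.45 ± 0.42 (SE, with limma, adjusted p = 0.026). This call was lost without MI/RI replicate 1 (log2 fold change 1.08, adjusted p = 0.089, limma), without sham replicate 2 (1.17, adjusted p = 0.081, limma), with no filter (adjusted p = 0.069, limma), after centring on the median (adjusted p = 0.058, limma) and after rescaling without mitochondrial mRNAs (0.87, adjusted p = 0.19, limma).

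MI/RI replicate 1 was the highest MI/RI rat for 7 of the 10 genes, as it was for 58.3% of all genes tested. MI/RI replicate 3 was the lowest for all 10, and for 42.2% of all genes tested. Relative to the mean of the other 2 MI/RI rats, replicate 1 was 2.95 times as high for Egr1 and 3.32 times as high for Nr4a1. The same ratio was 2.27 for Nr4a2 and 2.10 for Ier5, and between 1.06 and 1.43 for Egr2, Egr3, Ier2, Ier3 and Arc. Nr4a3 went the other way at 0.919. No more than 3 rats stood behind this pattern, and no test was made of it.

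Ier2 (ENSRNOG00000067274), which encodes a nuclear protein, and Ier3 (ENSRNOG00000000827, also called IEX-1), a stress gene that affects cell survival, were already well expressed in sham hearts. Ier2 was 7.96, 6.56 and 5.82 FPKM across sham rats 1 to 3 and 25.6, 19.6 and 16.4 FPKM across MI/RI rats 1 to 3. The groups did not overlap, the means of 6.78 ± 1.08 and 20.5 ± 4.72 FPKM (SD, n = 3 each) differed 3.03-fold, and the log2 fold change was 1.57 ± 0.25 (SE, with limma, adjusted p = 0.0035). Ier3 was 4.31, 3.63 and 8.35 FPKM across sham rats 1 to 3 and 31.5, 28.7 and 20.8 FPKM across MI/RI rats 1 to 3. Sham replicate 3 was the highest sham rat and still lay 2.49-fold under the lowest MI/RI rat. The mean of Ier3 rose 4.97-fold, from 5.43 ± 2.55 to 27.0 ± 5.57 FPKM (SD, n = 3 each), with a log2 fold change of 2.37 ± 0.33 (SE, with limma, adjusted p = 0.0026). Both genes were past the threshold in all 18 alternatives, although Ier2 had a log2 fold change of only 0.80 after rescaling without mitochondrial mRNAs.

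Ier5 (ENSRNOG00000059406), whose protein brings the phosphatase PP2A to heat shock factor 1 (HSF1), overlapped between the groups. It was 6.51, 7.17 and 15.1 FPKM across sham rats 1 to 3 and 25.1, 14.5 and 9.47 FPKM across MI/RI rats 1 to 3. Sham replicate 3 exceeded MI/RI replicates 2 and 3. The log2 fold change was 0.76 with a 95% interval of -0.15 to 1.66 (adjusted p = 0.18, limma; two-sided exact permutation test, p = 0.3). It did not pass the threshold in any of the 18 alternatives and was -0.023 after rescaling without mitochondrial mRNAs.

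Arc (ENSRNOG00000043465) was 2.55, 2.65 and 0.907 FPKM across sham rats 1 to 3 and 2.83, 3.69 and 1.63 FPKM across MI/RI rats 1 to 3. MI/RI replicate 3 lay below 2 of the sham rats, and replicate 3 was the lowest rat in both groups. The titles do not say that rats of the same number are paired. Between such rats, Arc was higher in the MI/RI rat in all 3 pairs, and the share of all genes that were so was not counted. The log2 fold change was 0.46 with a 95% interval of -0.48 to 1.41 (adjusted p = 0.42, limma; two-sided exact permutation test, p = 0.5), both without pairing. With the replicate number as a block the log2 fold change was 0.46 ± 0.25 (SE, with limma, adjusted p = 0.18), which also did not pass the threshold. It was -0.0097 without sham replicate 3 and -0.29 after rescaling without mitochondrial mRNAs. Arc had 138 to 463 fragments in a library and Nr4a2 had 39 to 266, and the part of counting depth in these results was not tested. For the 8 genes whose groups did not overlap, the same exact permutation test gave p = 0.1, the smallest that 3 rats against 3 allow.

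**Figure D3:**
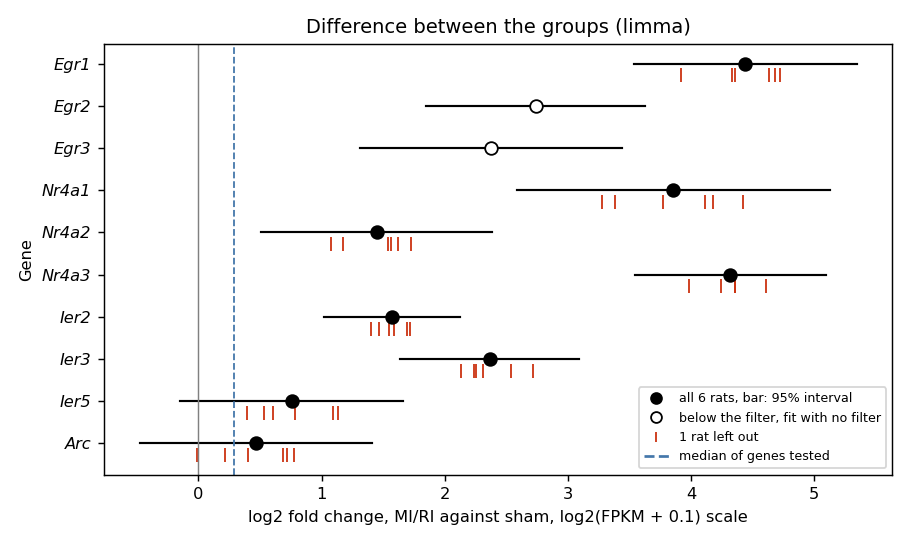
Difference of each gene between the groups. The horizontal axis is the log2 fold change of log2(FPKM + 0.1), MI/RI against sham, from limma. Filled circles with a 95% interval are the 8 genes tested, open circles are Egr2 and Egr3 from the fit with no filter, red ticks are the fits with 1 rat left out, and the dashed line is the median of all genes tested (0.29). The intervals of Ier5 and Arc include 0 and those of the other genes do not.

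The order of the genes by level changed between the groups. In the sham group the mean FPKM ran from Ier5 (9.58), Ier2 (6.78) and Ier3 (5.43) through Arc (2.04), Nr4a1 (1.82) and Egr1 (1.38) to Nr4a2 (0.399), Nr4a3 (0.155), Egr3 (0.0565) and Egr2 (0.0493). Only the steps from Ier3 to Arc and from Egr1 to Nr4a2 separated neighbours whose values did not overlap. In the MI/RI group Egr1 (36.2) came first, followed by Nr4a1 (27.5), Ier3 (27.0), Ier2 (20.5) and Ier5 (16.3), and neighbours among these 5 overlapped. Nr4a3 (4.69) stood apart from Ier5 above it and from Arc (2.72) below it, and Nr4a2 (1.31), Egr2 (0.889) and Egr3 (0.739) followed with overlapping values.

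For each gene tested, the profile over the 6 rats, taken as log2(FPKM + 0.1) minus its own sham mean, was compared with that of the 9112 genes of at least 1 FPKM on average. Fos, an AP-1 subunit and itself an immediate early gene, was closest to Egr1 (root mean square difference 0.39 on the log2 scale), followed by an unnamed gene, ENSRNOG00000063191 (0.51). Fos was 0.611, 0.530 and 0.420 FPKM across sham rats 1 to 3 and 50.7, 8.74 and 9.81 FPKM across MI/RI rats 1 to 3. MI/RI replicate 1 was far above the other rats, but Fos was picked by its likeness to Egr1, so this is no separate observation. The closest genes to Nr4a1 were Actc1 (0.27), the cardiac alpha-actin gene, and Abra (0.47), which activates SRF signaling in striated muscle. For Nr4a3, Rd3l was at 0.34. Ier3 was closest to Cd83 (0.16) and to Tnfaip3 (0.26), which encodes the NF-κB inhibitor A20. Nr4a2 was followed by an unnamed gene, ENSRNOG00000063385 (0.22), and by Phlda1 (0.23). The profile of Ier2 was matched by Emc6 (0.069) and Dhps (0.088), that of Ier5 by Tmx4 (0.27) and Tmem65 (0.28), and that of Arc by Ninj2 (0.21) and ENSRNOG00000032807 (0.22). These distances describe 6 rats and were not tested. They also depend on the size of the difference between the groups, so genes of like fold change come out close.

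Among the factors that act on such promoters, 1 gene was higher in each of the 2 lists (1 of 5 and 1 of 7), no more than the 25.5% of all genes tested. In both lists 0 genes were lower (0 also at an unadjusted p under 0.05, limma), against 7.36% of all genes tested. Of the 5 SRF, TCF and MRTF genes tested, Srf alone was higher (12.0, 11.9 and 7.27 FPKM in the MI/RI rats against 2.09 to 2.66 FPKM in the sham rats; log2 fold change 2.08, adjusted p = 0.0017, limma), and the median log2 fold change of the list was 0.0066. Of the 7 CREB and MEF2 genes tested, only Crem was higher (2.07 ± 0.334 to 8.53 ± 2.34 FPKM, SD, n = 3 each; log2 fold change 1.97, adjusted p = 0.0022, limma). Creb1 itself was not among the 7, because its means of 0.166 FPKM in sham and 0.0979 FPKM in MI/RI fell below the filter. Crem encodes activators and also repressors of CRE-driven genes, and the table does not separate them. The list had a median log2 fold change of 0.43, against 0.29 for all genes tested.

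Of the genes for partners of these proteins, 2 of 8 tested were higher, a share close to the 25.5% of all genes tested. Nab2, a corepressor that EGR factors induce and that binds them, was higher (0.948 ± 0.348 to 2.02 ± 0.625 FPKM, SD, n = 3 each; log2 fold change 1.03, adjusted p = 0.033, limma), while its relative Nab1 had a log2 fold change of 0.66 (adjusted p = 0.059, limma). Egr4 was listed at 0 in 5 of the 6 libraries. Among the retinoid X receptors, which pair with Nr4a1 and Nr4a2, Rxrg was higher (4.99 to 7.39 FPKM in the sham rats and 10.5 to 23.3 FPKM in the MI/RI rats; log2 fold change 1.21, adjusted p = 0.017, limma), and Rxra and Rxrb had log2 fold changes of 0.35 and 0.17. Hsf1, Ppp2r2a and Ppp2r2d, the HSF1 and PP2A subunit genes linked to Ier5, had log2 fold changes of 0.23, 0.26 and 0.49, and none of the 3 passed the threshold in limma, also at an unadjusted p under 0.05 (0 genes).

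Known targets of Egr1 were tested for 9 of the 10 genes listed, and 5 were higher and 0 lower (0 also at an unadjusted p under 0.05, limma), against 25.5% and 7.36% of all genes tested, with a median log2 fold change of 1.54. Icam1, a leukocyte adhesion molecule, had a log2 fold change of 2.52 (adjusted p = 0.0012, limma), and F3, which encodes tissue factor, 1.75 (adjusted p = 0.0060, limma). Pdgfa and Pdgfb, which encode platelet-derived growth factor chains, were also among those higher, with log2 fold changes of 1.54 and 1.33 (adjusted p = 0.0033 and 0.0081, limma). Each of these genes also answers to factors other than Egr1.

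Of the 39 other immediate early genes tested, 28 were higher and 11 did not pass, against 25.5% of all genes tested that were higher. Fosl1, among the 28, had a sham mean of 0.336 FPKM and passed the filter through its MI/RI values. None of the 39 was lower (0 also at an unadjusted p under 0.05, limma), against 7.36% of all genes tested. In the reported scaling all 39 had a log2 fold change above 0, against 65.3% of all genes tested. The log2 fold changes of the list ran from 0.033 to 4.74, with a median of 1.80. The largest differences were those of Fos (log2 fold change 4.74, adjusted p = 0.0014, limma), Atf3 (4.63, adjusted p = 0.00032, limma) and Cebpb (3.65, adjusted p = 0.0035, limma), all genes of bZIP transcription factors. The number higher was 26 without MI/RI replicate 1, 20 after rescaling without mitochondrial mRNAs, 33 with the replicate number as a block and 34 with TPM. Of all 10942 genes tested, 2063, 772, 3085 and 3449 were higher in these fits, in the same order, against 2790 as reported. At a mean of at least 5 FPKM, where fewer were tested, 18 of the list were higher, against 1892 of all 3784 genes tested. Npas4, a factor of active neurons, and Junb were listed at 0 in all 6 libraries. The values do not show whether such a gene was silent or was not counted, so no absence of Junb mRNA is read from them.

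**Figure D4:**
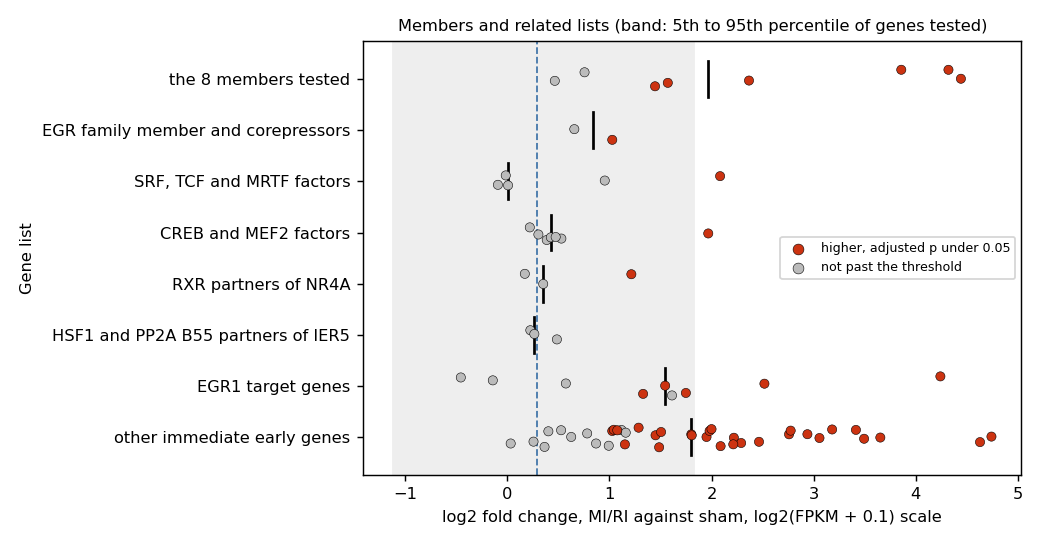
Log2 fold changes (MI/RI against sham, log2(FPKM + 0.1) scale) of the 8 members tested and of the related lists. Each point is a gene, red where it was higher at an adjusted p under 0.05 in limma and grey where it did not pass, the black bar is the median of the list, the grey band spans the 5th to the 95th percentile of all genes tested (-1.12 to 1.83) and the dashed line is their median (0.29). The medians of the members (1.97) and of the other immediate early genes (1.80) lie far to the right of that of the SRF, TCF and MRTF genes (0.0066).

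Markers of several cell types differed between the groups beside these genes. The counts below stand against 25.5% of all genes tested that were higher and 7.36% that were lower. Of 6 cardiomyocyte markers, 5 were higher (median log2 fold change of the list 2.10), and their summed FPKM was 3219 to 10510 in the sham rats and 21170 to 30370 in the MI/RI rats. Of 6 neutrophil and monocyte markers tested, 3 were higher and 1 lower (median 1.31), with a sum of 15.0 to 19.4 FPKM in the sham rats and 29.1 to 83.8 FPKM in the MI/RI rats. Mmp8, among those higher, and Csf3r, which did not pass, had sham means of 0.176 and 0.258 FPKM. Both passed the filter through their MI/RI values, so this count is a description. Of 6 endothelial markers 0 passed (1 at an unadjusted p under 0.05, limma; median 0.013), with sums of 141 to 182 FPKM and 156 to 179 FPKM, and 1 of 6 fibroblast markers was higher (median 0.42, sums of 416 to 574 FPKM and 590 to 653 FPKM). Smooth muscle and pericyte markers were split (1 higher and 2 lower of 6, median 0.51). Lower were 2 of 6 macrophage markers (median 0.19) and 1 of 4 lymphocyte markers tested (median -0.59). Of 4 red blood cell markers listed, only Slc4a1 was found by its symbol, with a log2 fold change of -0.093. Nerve and Schwann cell markers summed to 1.25 to 3.44 FPKM and 3.36 to 4.32 FPKM, with 0 of 3 tested past the threshold (1 at an unadjusted p under 0.05, limma; median 0.31), Snap25 at 0 in all libraries, and Syt1 and Th at 0 in some. The part of these cell types, and of the smaller mitochondrial share, in the differences of the immediate early genes was not tested.

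Scaling moved the median of all genes tested. This median log2 fold change, 0.29 in the reported test, became 0.48 with an equal sum in each library (TPM), 0.042 with each library centred on its median, -0.022 with quantile normalization and -0.48 with the mitochondrial mRNAs taken out before rescaling. Of the calls among all genes, the share that was higher was 77.6% in the reported test, 56.5% with centring, 48.0% with quantile normalization and 21.4% without mitochondrial mRNAs. Relative to that median, the log2 fold change over these 5 scalings was 4.02 to 4.22 for Egr1, 3.46 to 3.64 for Nr4a1 and 4.03 to 4.73 for Nr4a3. It was 1.16 to 1.47 for Nr4a2, 1.75 to 2.08 for Ier3 and 0.97 to 1.29 for Ier2. It was 0.094 to 0.47 for Ier5 and 0.17 to 0.30 for Arc. Apart from quantile normalization, these scalings shift nearly all genes of a library alike, except genes near the pseudocount. Subtracting the median takes that shift out by construction, so the narrow ranges are no test of the scaling.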

How the data were processed

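RNA of myocardial tissue from 3 sham and 3 MI/RI rats was sequenced from stranded total RNA libraries. The authors deposited FPKM values in 1 table of 30452 Ensembl genes. STAR and HTSeq are named in the submitters' processing notes, with no versions, and the genome build and annotation are not given in the sources used here. Columns were matched to samples by name, and rows that shared a symbol were summed.

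Log2(FPKM + 0.1) of the 10942 genes with a mean of at least 0.5 FPKM was compared with limma 3.58.1 (R 4.3.3, intensity trend, Benjamini-Hochberg adjustment over these genes, threshold 0.05). The pseudocount understates changes of low genes. The code was tested on simulated data. The depth in fragments is not stated. Relative depth was taken from the commonest ratio between libraries of values under 0.05 FPKM, and whole fragments from the steps of each row.

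Both groups are numbered 1 to 3 in the titles. Deviations of same-numbered rats from their group means correlated at 0.203, 0.117 and 0.118 across genes, so by a rule of 0.1 for every pair the numbers were treated as pairing the rats in an alternative fit. Sham replicate 3 correlated about as well with MI/RI replicate 2 (0.12). The titles name no shared batch.

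The members, the lists (partners, upstream factors, targets, other immediate early genes, cell type markers), the tests and most alternatives were chosen with earlier results of these data known. The fit of whole fragments with voom was added after the data were seen. Named from the lists were all genes of lists of up to 5, and otherwise the 3 highest and 2 lowest past the threshold. Pdgfa, Pdgfb, Egr4, Creb1, Fosl1, Npas4, Junb, Mmp8, Csf3r, Slc4a1, Snap25, Syt1 and Th were named after their values were seen. Promoters were matched by symbol (RefSeq, GRCr8). Of the genes this rule named, 1 is not reported here.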

Additional observations from a re-analysis of the deposited data

How the results depend on the processing

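Egr1, Nr4a1, Nr4a3, Ier2 and Ier3 kept their direction and their side of the threshold in every alternative in which they were tested, Nr4a2 in 12 of 17, and Ier5 and Arc passed it in none. The number of members called higher, 6 as reported, was 7 with no filter (10 tested) and 4 at a mean of at least 5 FPKM (5 tested). It was 5 or 6 in the others, and 0 members were lower in any. Of all genes tested, 2790 of 10942 were higher as reported, 2198 of 19226 with no filter and 1892 of 3784 at a mean of at least 5 FPKM. In the others, 772 (rescaled without mitochondrial mRNAs) to 3449 (TPM) of all genes were higher. Ier5 and Arc turned to -0.023 and -0.29 after rescaling without mitochondrial mRNAs, which lowers every gene, and with 1 rat left out Arc ran from -0.0097 (without sham replicate 3) to 0.78; the cause was not tested.

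Counts over all genes, 2790 higher and 805 lower as reported, moved more. A mean of at least 5 FPKM tested fewer genes and gave 166 lower, TPM gave 504 lower, centring on the median 1554 lower, quantile normalization 1441 higher and 1559 lower, rescaling without mitochondrial mRNAs 772 higher and 2831 lower, and an adjusted p under 0.01 gave 1185 higher and 211 lower. With 1 rat left out, 1528 to 2557 were higher and 309 to 881 lower, and the members called higher numbered 5 or 6. The lowest counts came without sham replicate 3 (1528 higher, 359 lower) and without sham replicate 2 (309 lower). A replicate block for the 3 numbers gave 3085 higher and 895 lower, with 6 members higher and no call of a member changed. Voom on the whole fragments, added after seeing the data, called 6 members higher, against 2848 of all 10735 genes tested. Depth limits Egr2 and Egr3, which rest on 0 to 15 fragments in a sham library.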
